A study of Homo sapiens with 9 samples.

Results

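The 9 genes ATF3, ATF4, ATF5, JDP2, DDIT3, CEBPB, CEBPG, NUPR1 and TRIB3 encode stress-regulated transcription factors of the basic leucine zipper (bZIP) family and their close partners, and they were followed across 3 treatments of HEK293T cells. They were selected on measured values: earlier read counts of the same 9 libraries, compared over the treatments, were known when the genes were chosen. They are 9 of the 57500 genes of the count files, and each was found by its name in both deposited tables and by its identifier in all count files. Their differences between treatments are therefore a description of these libraries. Calls of the fit over all genes are given for them without being read as support.

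HEK293T is an established human embryonic kidney line that carries the SV40 large T antigen. The cells received 10 µM HBC530, 10 µM MsOc3HBC or the solvent DMSO for 5 h, with 3 biological replicates in each group and no other allele or agent named. HBC530 is a fluorogenic ligand that binds the Pepper RNA aptamer without a covalent bond, and MsOc3HBC is a derivative of HBC with a mesylate on a short alkyl handle that can react with a guanine of the aptamer. The study sequenced poly(A) RNA to ask whether transcript levels in the cell changed with the reactive ligand. As a model it is limited to 1 cell line at 1 dose and 1 time.

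The libraries held 28056929 to 62205366 counts, and the 2 shallowest were replicate 3 of MsOc3HBC and replicate 3 of HBC530. These 2 libraries also stood apart on the first principal component of all kept genes, at 45.2 and 36.4, whereas the other 7 libraries lay between -19.4 and -3.71. The differences of the 9 genes from DMSO are therefore given with and without replicate 3 of the ligand, and the part of these libraries in other results was not tested unless a value is given. Of 8 markers of HEK293T cells, 7 had a median above 1 CPM (counts scaled to a common library size, with TMM factors between libraries), and PAX8 reached at most 0.0747 CPM. Among markers of other cell types, PTPRC, CD3E, ALB and HBB had a median of 0 CPM, PECAM1 reached at most 0.110 CPM and GFAP 0.971 CPM, while COL1A1 stood at 19.4 to 35.2 CPM. In RNA from whole cultures, a smaller number of cells with a transcript and less of it per cell cannot be told apart.

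In the integrated stress response, kinases that sense amino acid shortage, misfolded protein, double-stranded RNA or haem deficiency phosphorylate the translation factor eIF2. General translation then drops, while the mRNA of ATF4 is translated better because of upstream open reading frames. ATF4 pairs with C/EBP proteins and activates genes of amino acid synthesis and transport, together with DDIT3 (the protein CHOP), ATF3, NUPR1 and TRIB3. RNA-seq records only the transcript level, so it does not read the translational step by which ATF4 is mainly controlled.

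Promoter sequence is shown for 3 of the genes because it carries the binding motifs of the proteins described here. RefSeq promoters (GRCh38.p14, 250 bases before to 50 bases after a start site) were at hand for 8 of the 9 genes, as 19 windows, and NUPR1 was not matched. The C/EBP-ATF composite element, to which ATF4 binds as a dimer with a C/EBP protein, was searched on both strands as TGATGNAA. It was present in a window of 3 of the 8 genes, ATF3, JDP2 and CEBPG, and in 4.46% of the 27305 genes of the table. In JDP2 and CEBPG the match read TGATGCAA and lay close before a start site, at bases -16 to -9 and -42 to -35. In ATF3 it read TGATGGAA and lay at -191 to -184 of the more upstream of its 2 start sites in the table. The AP-1 site TGANTCA was found in ATF5 and DDIT3 and in 9.37% of all genes of the table. The cAMP response element TGACGTCA was in none of the 19 windows and in 2.25% of all genes of the table. The CCAAT box was in 4 of the 8 genes and in 39.7% of all genes of the table. By single promoters, of which the table holds 35116, the shares were 3.62% for the composite element, 7.71% for the AP-1 site, 1.85% for the cAMP response element and 34.6% for the CCAAT box. The motifs searched are descriptions of sequence and do not show that a factor was bound. Sequence outside the windows was not searched. A window without a match, as in DDIT3 for the composite element, does not show that the gene lacks it. The stretches below lie directly before a start site, with the composite element of JDP2 and CEBPG and the AP-1 site of DDIT3 in capitals.
JDP2, 120 bases, plus strand, chr14:75427902-75428021: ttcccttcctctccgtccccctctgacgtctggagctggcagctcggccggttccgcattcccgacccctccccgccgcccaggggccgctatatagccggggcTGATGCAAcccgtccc
CEBPG, 120 bases, plus strand, chr19:33373993-33374112: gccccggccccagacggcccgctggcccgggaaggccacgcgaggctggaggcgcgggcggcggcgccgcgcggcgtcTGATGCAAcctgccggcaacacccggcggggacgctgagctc
DDIT3, 250 bases, minus strand, chr12:57520515-57520764: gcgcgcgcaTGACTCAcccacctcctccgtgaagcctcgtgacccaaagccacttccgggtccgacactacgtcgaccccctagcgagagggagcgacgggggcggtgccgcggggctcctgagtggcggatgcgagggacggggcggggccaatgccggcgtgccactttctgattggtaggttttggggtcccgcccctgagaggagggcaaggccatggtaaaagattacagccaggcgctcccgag

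Without ligand the 9 genes covered a wide range of levels. In TPM, which divides counts by the exonic length so that genes can be compared, the DMSO means were 885 ± 37.9 for ATF4, 72.4 ± 1.89 for ATF5, 46.9 ± 2.39 for CEBPB, 42.5 ± 3.45 for CEBPG and 29.9 ± 2.24 for ATF3 (SD, n = 3). TRIB3 followed at 17.2 ± 1.01, DDIT3 at 8.15 ± 0.0244, JDP2 at 2.01 ± 0.158 and NUPR1 at 0.605 ± 0.127 TPM (SD, n = 3). The ranges of CEBPB, 44.1 to 48.3 TPM, and CEBPG, 38.9 to 45.8 TPM, overlapped, and no other neighbours in this order did. ATF4 lay above 99.2% of the 18041 kept genes and NUPR1 above 11.9% of them. ATF4 was also the most abundant of 54 bZIP genes in each of the 9 libraries. It made up 35.0%, 36.6% and 37.5% of their summed TPM with DMSO, 37.1%, 35.4% and 41.6% with HBC530, and 42.0%, 40.7% and 46.8% with MsOc3HBC. The share was higher in each MsOc3HBC library than in each DMSO library, and the HBC530 libraries overlapped with both.

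**Figure D1:**
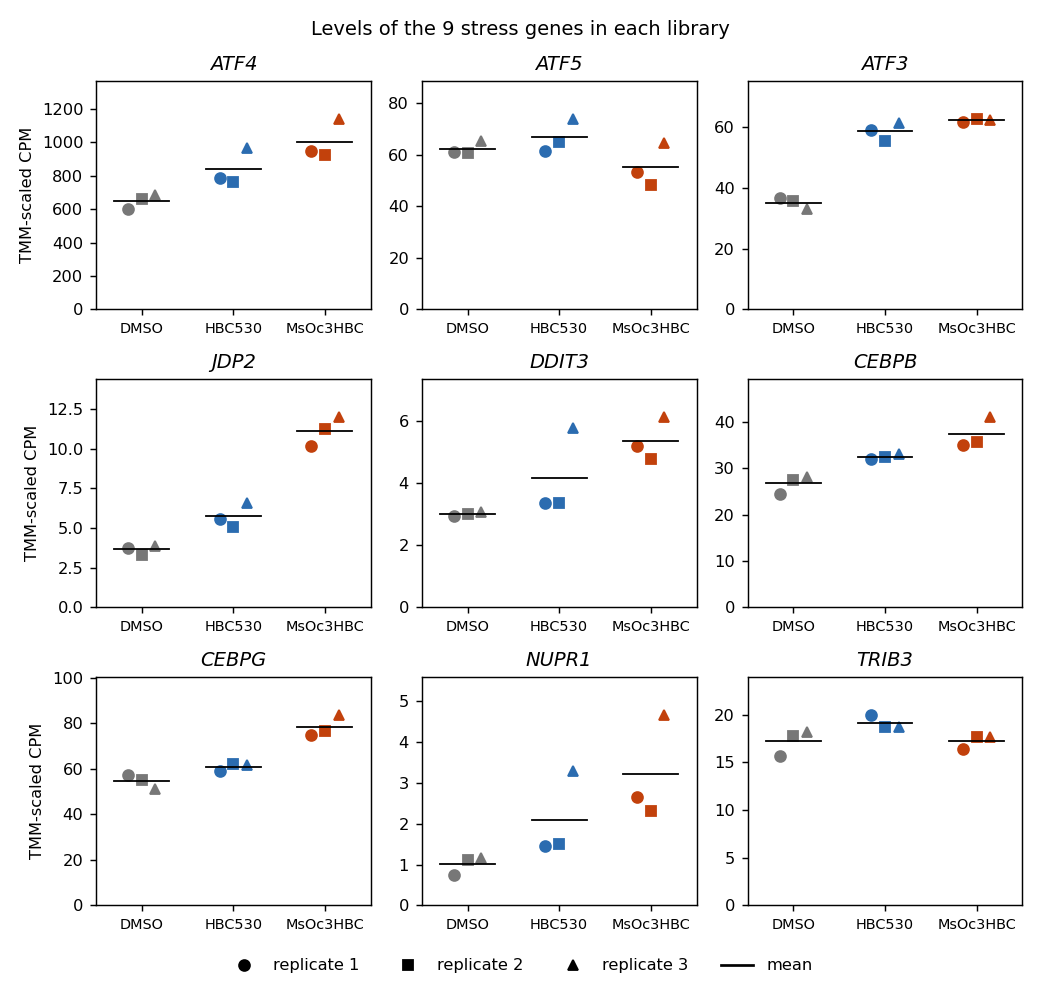
TMM-scaled CPM (vertical axes, from 0) of the 9 genes in each library, by treatment (horizontal axes), with the symbol giving the replicate and the line the mean of 3 libraries. JDP2 stands at 3.32 to 3.88 with DMSO, 5.05 to 6.55 with HBC530 and 10.2 to 12.0 with MsOc3HBC. Replicate 3 of both ligands is the highest of its group for ATF4, ATF5, JDP2, DDIT3, CEBPB and NUPR1.

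In the fit of HBC530 against DMSO over 17684 genes, 1 of the 9 genes, ATF3, was called at an adjusted p under 0.05, where 0.017% of all genes were called. In TMM-scaled CPM the 3 treated libraries lay above all 3 DMSO libraries for 8 of the 9, beside 7.17% of all genes. In MsOc3HBC against DMSO over 17514 genes, 3 of the 9 were called, ATF3, JDP2 and DDIT3, where 0.154% of all genes were called, and 7 of the 9 lay above the DMSO libraries, beside 9.35% of all genes. The genes were chosen with these comparisons known, and nothing is read from these shares. The median log2 fold change of the 9 was 0.37 with HBC530 and 0.63 with MsOc3HBC, and that of all genes was 0.0046 and 0.012. Both comparisons used the same 3 DMSO libraries.

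ATF4 is the central activator of the response. Its level was 602, 662 and 685 CPM with DMSO, 787, 763 and 964 with HBC530, and 947, 926 and 1139 with MsOc3HBC. Every ligand library was above every DMSO library, and replicate 3 was the highest with each ligand. On the log2 scale the difference from DMSO was 0.37 ± 0.11 (SE, n = 3 per group) with HBC530 and 0.63 ± 0.11 with MsOc3HBC, and neither was called. Without replicate 3 of the ligand it was 0.26, not called, and 0.53, which was called (adjusted p = 0.0083, edgeR). The gene lies at chr22:39519695-39522685 (GRCh38, plus strand), and its exons share no base with another gene.

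ATF5 is the nearest relative of ATF4 and is also under translational control in stress. It stood at 61.3, 60.6 and 65.3 CPM with DMSO, 61.6, 65.2 and 73.9 with HBC530, and 53.4, 48.2 and 64.7 with MsOc3HBC. In CPM the groups overlapped in both comparisons. With MsOc3HBC this was only through replicate 3, since replicates 1 and 2 lay below all DMSO libraries. In TPM all MsOc3HBC libraries, at 58.4 to 66.8, lay below the DMSO libraries, at 70.3 to 74.0. In log2 fold change, ATF5 had 0.10 ± 0.09 with HBC530 and -0.17 ± 0.12 with MsOc3HBC (SE, n = 3 per group), the only negative value of the 9 genes against DMSO in the fit with all replicates. Without replicate 3 of the ligand the values were 0.030 and -0.30, and neither was called. ATF5 (chr19:49928702-49933935, GRCh38, plus strand) shares 626 bases, or 21.2% of its exons, with NUP62 and 75 bases with IL4I1, both on the other strand. NUP62, a nuclear pore protein, had 158 to 204 CPM of the library totals and a log2 fold change of -0.23 with MsOc3HBC (adjusted p = 0.404, edgeR quasi-likelihood test). IL4I1 had at most 0.801 CPM. Whether reads were assigned by strand is not given in the sources used here, so the part of such reads in the ATF5 values was not tested.

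ATF3 is a bZIP factor that is induced by many stresses and can repress transcription as a homodimer. It was at 36.7, 35.7 and 33.2 CPM with DMSO, 59.1, 55.6 and 61.3 with HBC530, and 61.8, 62.7 and 62.4 with MsOc3HBC. Both ligands left a gap to DMSO that was wide against the spread within each group, and replicate 3 was not apart from replicates 1 and 2. ATF3 had a log2 fold change of 0.74 ± 0.09 with HBC530 and 0.83 ± 0.09 with MsOc3HBC (SE, n = 3 per group), or 1.67-fold and 1.77-fold. With MsOc3HBC the call held in each of 6 fits that left out 1 library. With HBC530 it held in 1 of 6, the fit without HBC530 replicate 3, and was lost without DMSO replicate 1, 2 or 3 or HBC530 replicate 1 or 2, although the log2 fold change in these fits stayed between 0.70 and 0.77. Without replicate 3 of the ligand the values were 0.71 and 0.82. ATF3 spans chr1:212565334-212620777 (GRCh38, plus strand) and shares no exonic base with another gene.

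JDP2, the Jun dimerization protein, is a bZIP repressor at AP-1 and cAMP response elements and has a leucine zipper closely related to that of ATF3. It was at 3.75, 3.32 and 3.88 CPM with DMSO, 5.58, 5.05 and 6.55 with HBC530, and 10.2, 11.2 and 12.0 with MsOc3HBC. The 3 groups did not overlap and ran in that order. JDP2 had a log2 fold change of 0.64 ± 0.13 with HBC530, which was not called, and 1.61 ± 0.12 with MsOc3HBC, or 3.05-fold (SE, n = 3 per group). The MsOc3HBC call held in each of 6 fits that left out 1 library, and without replicate 3 of the ligand the values were 0.55 and 1.55. The HBC530 difference was called in 2 of 17 alternative fits, by DESeq2 close to the threshold (adjusted p = 0.0493) and without the filter on low counts. These values rest on 172 to 614 counts per library. JDP2 lies at chr14:75427716-75474111 (GRCh38, plus strand) and shares 26 bases, or 0.417% of its exons, with JDP2-AS1, which had at most 0.359 CPM.

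**Figure D2:**
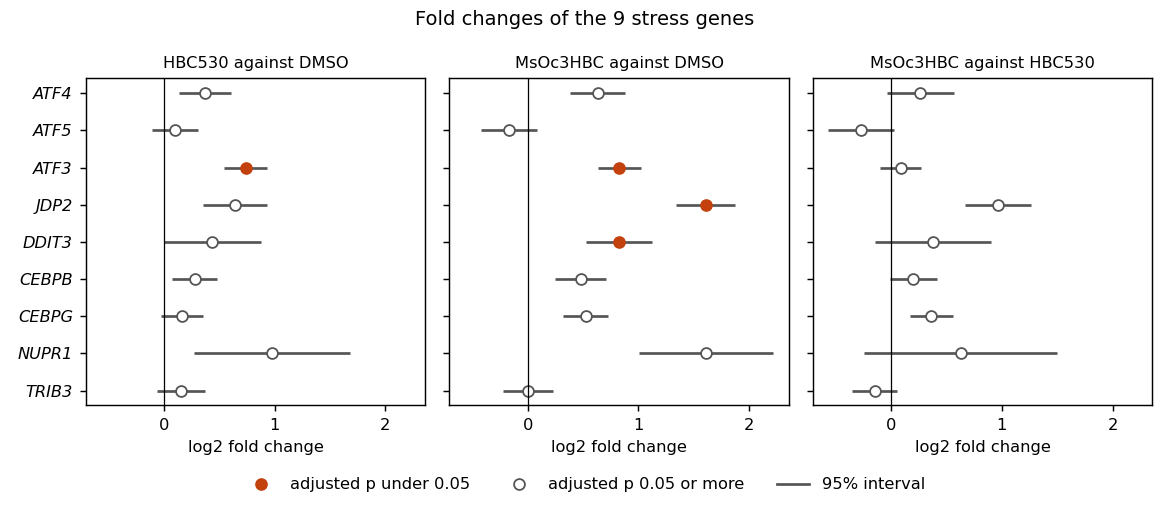
log2 fold change (horizontal axes) of the 9 genes in each of the 3 comparisons, with bars for the 95% interval of the fit and filled points for an adjusted p under 0.05 over all genes. JDP2 stands at 0.64, 1.61 and 0.96 from left to right, and the intervals of ATF5 and TRIB3 span 0 in all 3 comparisons.

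DDIT3 encodes CHOP, a C/EBP relative that dimerizes with C/EBP proteins and is linked to cell death in prolonged stress. It was at 2.95, 3.01 and 3.08 CPM with DMSO, 3.37, 3.36 and 5.76 with HBC530, and 5.20, 4.76 and 6.12 with MsOc3HBC, from 135 to 260 counts per library. With HBC530, replicate 3 was far above replicates 1 and 2, which were close to DMSO. With HBC530 the log2 fold change was 0.44 ± 0.20 (SE, n = 3 per group), and 0.16 without replicate 3. With MsOc3HBC it was 0.82 ± 0.14, or 1.77-fold, and 0.72 without replicate 3. That call stood at the threshold, with an adjusted p of 0.04998 in the edgeR fit over all genes. It was lost with RLE or upper-quartile factors, with 10 counts required in every library, with all 9 libraries in 1 fit, with limma-voom, and without DMSO replicate 1, 2 or 3 or MsOc3HBC replicate 1, at adjusted p values of 0.0508 to 0.302.

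DDIT3 lies at chr12:57516588-57520517 (GRCh38, minus strand), where 355 bases, or 28.0% of its 1266 exonic bases, are also exons of MARS1 on the plus strand. MARS1, the methionyl-tRNA synthetase and itself a target of ATF4, was at 346 to 423 CPM of the library totals, so DDIT3 was measured at a small part of the level of its neighbour. The other 911 exonic bases of DDIT3 are not shared. MARS1 had a log2 fold change of 0.09 ± 0.08 with HBC530 and 0.12 ± 0.09 with MsOc3HBC (SE, n = 3 per group; adjusted p = 0.764 and 0.639, edgeR quasi-likelihood test over all genes). The featureCounts strand setting is not given in the sources used here, and the part of shared reads in the DDIT3 values was not tested.

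**Figure D3:**
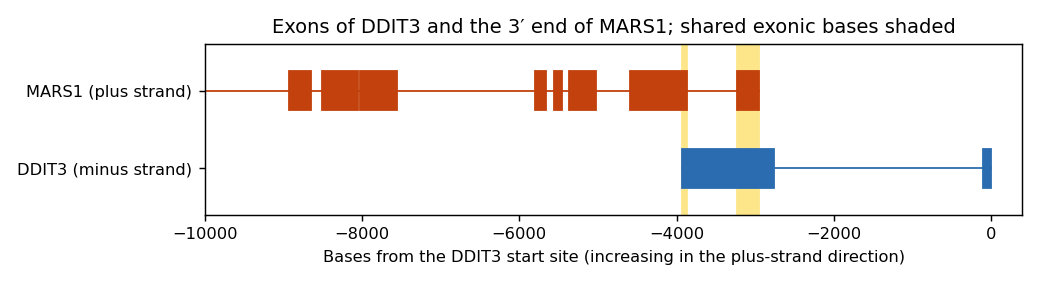
Exons (boxes) of DDIT3 and of the 3′ end of MARS1 by distance in bases from the DDIT3 start site, with introns as lines and the shared exonic bases shaded. The shaded stretches, 355 bases in all, lie in the last exon of DDIT3.

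CEBPB encodes C/EBPβ, which pairs with ATF4 and CHOP and also serves inflammatory and metabolic programmes. It stood at 24.6, 27.5 and 28.2 CPM with DMSO, 32.0, 32.5 and 33.0 with HBC530, and 35.1, 35.8 and 41.1 with MsOc3HBC. The 3 groups did not overlap. CEBPB had a log2 fold change of 0.28 ± 0.09 with HBC530 and 0.48 ± 0.10 with MsOc3HBC (SE, n = 3 per group), and 0.27 and 0.41 without replicate 3 of the ligand. Neither was called. CEBPB is a gene of 1 exon (chr20:50190734-50192689, GRCh38, plus strand), and 231 bases, or 11.8%, are shared with CEBPB-AS1, which had at most 0.856 CPM.

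CEBPG encodes C/EBPγ, a short C/EBP protein that acts mainly as a dimer partner of ATF4. It stood at 57.4, 55.2 and 51.3 CPM with DMSO, 59.0, 62.1 and 61.8 with HBC530, and 75.0, 76.5 and 83.7 with MsOc3HBC. In CPM the groups did not overlap, and the HBC530 libraries were close to DMSO. In TPM the HBC530 libraries, at 41.3 to 49.3, overlapped with DMSO, at 38.9 to 45.8. CEBPG had a log2 fold change of 0.16 ± 0.09 with HBC530 and 0.52 ± 0.09 with MsOc3HBC (SE, n = 3 per group), and 0.16 and 0.47 without replicate 3 of the ligand. Neither was called in the fit with all replicates, and the MsOc3HBC difference was called without MsOc3HBC replicate 3. CEBPG lies at chr19:33373330-33382686 (GRCh38, plus strand) and shares no exonic base with another gene.

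NUPR1 encodes a small chromatin-associated stress protein that ATF4 induces. It was the scarcest of the 9, with 34 to 127 counts per library. It stood at 0.742, 1.10 and 1.17 CPM with DMSO, 1.47, 1.505 and 3.31 with HBC530, and 2.65, 2.32 and 4.67 with MsOc3HBC. Ligand libraries were all above DMSO, and replicate 3 of each ligand was far above the other 2. NUPR1 had a log2 fold change of 0.98 ± 0.32 with HBC530 and 1.62 ± 0.28 with MsOc3HBC (SE, n = 3 per group), or 1.97-fold and 3.07-fold. Without replicate 3 of the ligand these became 0.55 and 1.28. The MsOc3HBC difference was not called with all replicates, but was called without MsOc3HBC replicate 2 or 3. NUPR1 lies at chr16:28532708-28539174 (GRCh38, minus strand).

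TRIB3 encodes a pseudokinase that ATF4 and CHOP induce and that restrains both in return. It was at 15.6, 17.8 and 18.2 CPM with DMSO, 20.0, 18.7 and 18.7 with HBC530, and 16.4, 17.7 and 17.7 with MsOc3HBC. The MsOc3HBC and DMSO libraries overlapped, and the HBC530 libraries lay above both. The log2 fold change was 0.15 ± 0.10 with HBC530 and 0.0046 ± 0.10 with MsOc3HBC (SE, n = 3 per group). The 95% interval of the latter ran from -0.22 to 0.23. Without replicate 3 of the ligand the values were 0.17 and -0.014. TRIB3 lies at chr20:362835-397559 (GRCh38, plus strand).

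The number of these 9 genes called with MsOc3HBC depended on the test. DESeq2 called 7 of the 9, ATF3, ATF4, JDP2, DDIT3, CEBPB, CEBPG and NUPR1, where it called 0.859% of the 15485 genes with an adjusted p. At the threshold of the study's methods (a log2 fold change over 1 in size at an adjusted p below 0.5) 2 of the 9, JDP2 and NUPR1, were called in the edgeR fit, beside 0.582% of all genes. That adjusted p is taken as the methods print it and may be a misprint of 0.05. With 0.05 in its place the edgeR fit called 1 of the 9, JDP2, beside 0.0514% of all genes. The study itself applied its threshold to DESeq2. In the DESeq2 fit made here, JDP2 and NUPR1 had a log2 fold change over 1, at adjusted p of 5.3e-23 and 1.05e-05. For DESeq2 the share of all genes at that threshold is not given. With 1 library left out, the edgeR count at an adjusted p under 0.05 was 6 of the 9 without MsOc3HBC replicate 3 (0.421% of all genes). It was 4 without MsOc3HBC replicate 2 (23 of 17564 genes) and 2 without MsOc3HBC replicate 1 (10 of 17963). It was also 2 without DMSO replicate 1 (6 of 18072), 2 (12 of 17625) or 3 (11 of 17566).

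The ligands were compared directly at the same dose and time. In the fit without the replicate number, 0 of the 9 genes were called at an adjusted p under 0.05, as were 0% of 17397 genes. At an unadjusted p under 0.05 the fit had 2 of the 9, JDP2 and CEBPG, beside 7.32% of all genes, and DESeq2 called 1, JDP2, beside 0.248% of the 10078 genes with an adjusted p. In CPM the MsOc3HBC libraries were all above the HBC530 libraries for 4 of the 9, ATF3, JDP2, CEBPB and CEBPG, beside 6.85% of all genes. They were all below for 1, TRIB3, beside 8.5% of all genes. In TPM, ATF3 and TRIB3 overlapped between the ligands, while ATF4, ATF5 and DDIT3 did not. No share over all genes was taken in TPM. The labels number the replicates but do not say that libraries of the same number belong together. A block on the number takes them as pairs, which was not established. Replicate 3 of both ligands stood apart, and its part in the blocked calls was not tested. With the number as a block, 6 of the 9 genes were called, where 11.4% of all genes were called: ATF4, JDP2, DDIT3, CEBPG and NUPR1 higher and ATF5 lower with MsOc3HBC. Without replicate 3 of both ligands the fit without the block called the same 6 of the 9, where it called 9.16% of all genes.

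JDP2 had the largest ligand difference of the 9, with a log2 fold change of 0.96 (95% interval 0.66 to 1.26) and of 0.97 with the block. Within replicate numbers 1, 2 and 3 the log2 ratio of MsOc3HBC to HBC530 was 0.86, 1.15 and 0.87. CEBPG was at 0.36 (0.17 to 0.56) and ratios of 0.35, 0.30 and 0.44. For ATF4 the ratios of 0.27, 0.28 and 0.24 lay closest together, although the groups overlapped in CPM. The ATF4 interval without the block ran from -0.04 to 0.57. With the block the ATF4 interval was 0.17 to 0.36.

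DDIT3 had ratios of 0.63, 0.50 and 0.09, the smallest in replicate 3, where the HBC530 library was high. Its interval was -0.14 to 0.90 without and 0.16 to 0.67 with the block. NUPR1 had ratios of 0.85, 0.63 and 0.50 with intervals of -0.24 to 1.502 and 0.35 to 0.95. For ATF5 the ratios were -0.21, -0.44 and -0.19, so each MsOc3HBC library was below the HBC530 library of its number, and the interval with the block was -0.41 to -0.15.

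ATF3, CEBPB and TRIB3 were not called with or without the block. CEBPB was called with the block and with trends over GC content and exonic length removed, at 0.34 (adjusted p = 0.0332, edgeR). That fit called 317 of 17227 genes. The ATF3 difference was 0.09 (95% interval -0.10 to 0.27). That of CEBPB was 0.20 (-0.01 to 0.42) and that of TRIB3 -0.15 (-0.35 to 0.05). The intervals do not show that the ligands acted alike on these genes. In CPM, ATF3 was at 58.7 ± 2.90 with HBC530 and 62.3 ± 0.463 with MsOc3HBC, and JDP2 at 5.73 ± 0.760 CPM with HBC530 and 11.1 ± 0.917 with MsOc3HBC (SD, n = 3).

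**Figure D4:**
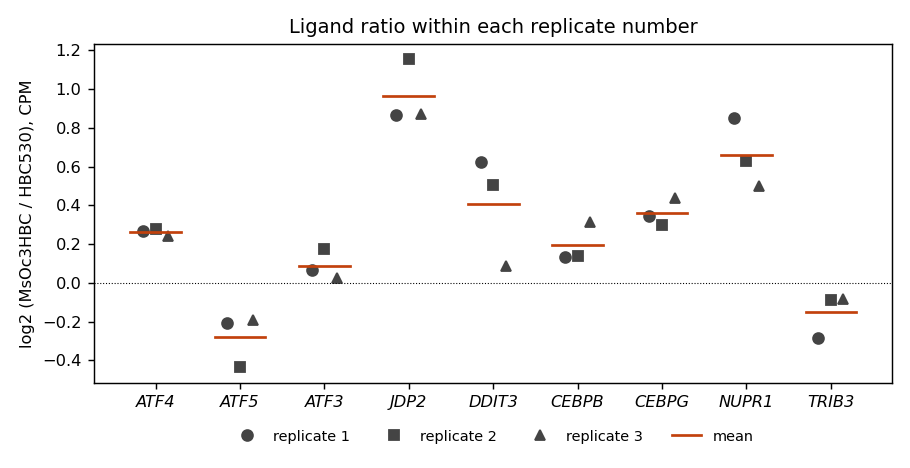
log2 ratio of MsOc3HBC to HBC530 in CPM (vertical axis) within each replicate number for the 9 genes (horizontal axis), with the mean as a line. JDP2 lies between 0.86 and 1.15, ATF4 between 0.24 and 0.28, and all ratios of ATF5 and TRIB3 are below 0.

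The rest of the bZIP family was taken as 47 further genes, of which 43 passed the filter on low counts. BATF, CEBPE, CREB3L3 and NFE2 did not. With edgeR, 0 of the 43 were called in each of the 3 comparisons, and 6, 10 and 8 had an unadjusted p under 0.05 with HBC530, with MsOc3HBC and between the ligands, beside 5.07%, 10.9% and 7.32% of all genes. DESeq2 called 2, 1 and 0, beside 0.155%, 0.859% and 0.248%, and limma-voom 1, 0 and 0, beside 0.0283%, 0.12% and 0%. The median log2 fold change of the 43 was -0.03, -0.01 and -0.07, beside 0.0046, 0.012 and 0.017 for all genes. Positive values were found for 20, 21 and 19 of them.

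JUN, the AP-1 subunit with which ATF3 and JDP2 can dimerize, had the smallest p of these genes against DMSO. It was at 367, 368 and 355 CPM with DMSO, 545, 583 and 532 with HBC530, and 517, 561 and 431 with MsOc3HBC, so both ligand groups were above DMSO. The log2 fold change was 0.61 ± 0.08 with HBC530 (adjusted p = 0.0527) and 0.47 ± 0.11 with MsOc3HBC (adjusted p = 0.171, edgeR, SE, n = 3 per group). Both became calls without replicate 3 of the ligand, at 0.64 and 0.57 (adjusted p = 0.00182 and 0.00292, edgeR). JUND, another AP-1 subunit, was next with HBC530 at 0.55 ± 0.12 (adjusted p = 0.619, edgeR quasi-likelihood test, SE, n = 3 per group). Between the ligands the smallest p were those of CEBPA at -0.33 ± 0.09 and NFE2L2 at 0.25 ± 0.08 (adjusted p = 0.643 for both, edgeR, SE, n = 3 per group). CEBPA is the founding C/EBP protein and NFE2L2 encodes NRF2, the regulator of the antioxidant response.

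Known targets of ATF4 and CHOP outside the 9 were taken as 39 genes, of which 38 passed the filter. Earlier results of these data were known when the list was made, so nothing is read from its shares. FGF21 did not. With HBC530, 1 of the 38 rose, CHAC1, and with MsOc3HBC 7 rose, CHAC1, SLC7A11, SESN2, SLC6A9, STC2, CTH and HERPUD1, where 0.017% and 0.154% of all genes were called. None fell at an adjusted p under 0.05 in these 2 edgeR fits, and 11 and 23 of the 38 had an unadjusted p under 0.05, beside 5.07% and 10.9% of all genes. The median log2 fold change of the 38 was 0.11 with HBC530 and 0.24 with MsOc3HBC, beside 0.0046 and 0.012 for all genes, and 26 and 34 of them had a positive value. DESeq2 called 1 and 10 of the 38, beside 0.155% and 0.859% of the genes with an adjusted p. With MsOc3HBC the edgeR count was 2 without DMSO replicate 1 and 4 without DMSO replicate 2 or 3. It was 3 without MsOc3HBC replicate 1, 5 without replicate 2 and 10 without replicate 3. Over all genes it was 6 of 18072, 12 of 17625 and 11 of 17566 without DMSO replicate 1, 2 and 3. It was 10 of 17963, 23 of 17564 and 76 of 18044 without MsOc3HBC replicate 1, 2 and 3. Between the ligands edgeR called 0 of the 38 (0% of all genes), with 17 at an unadjusted p under 0.05 (7.32% of all genes). DESeq2 called 6 (0.248% of the genes with an adjusted p) and limma-voom 0 (0% of all genes). With the replicate block 18 of the 38 were called, all higher with MsOc3HBC, where 11.4% of all genes were called.

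CHAC1, a glutathione-degrading enzyme under ATF4 and CHOP control, had the largest difference of this list. It was at 2.29, 2.39 and 2.36 CPM with DMSO, 6.89, 6.30 and 6.55 with HBC530, and 13.7, 14.2 and 16.5 with MsOc3HBC. The 3 groups were in the same order as those of JDP2 and did not overlap. The log2 fold change was 1.49 ± 0.11 with HBC530 (adjusted p = 0.00062), 2.65 ± 0.12 with MsOc3HBC (adjusted p = 3.7e-06) and 1.17 ± 0.11 between the ligands (adjusted p = 0.102, edgeR, SE, n = 3 per group).

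SLC7A11, the cystine transporter, was at 10.4, 8.72 and 8.48 CPM with DMSO, 14.9, 13.8 and 11.3 with HBC530, and 26.1, 33.0 and 22.9 with MsOc3HBC. Replicate 3 of each ligand was the lowest of its group, unlike in DDIT3 and NUPR1. The log2 fold change was 0.54 ± 0.13 with HBC530 and 1.58 ± 0.14 with MsOc3HBC (adjusted p = 0.751 and 0.00142, edgeR, SE, n = 3 per group), and without replicate 3 of the ligand 0.65 and 1.69. SESN2, an inhibitor of the growth kinase mTORC1, had 0.30 ± 0.10 and 0.95 ± 0.10 (adjusted p = 0.751 and 0.00198, edgeR). SLC6A9, a glycine transporter, had 0.32 ± 0.13 and 1.01 ± 0.12 (adjusted p = 0.751 and 0.0068, edgeR).

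STC2, a secreted glycoprotein of the stress response, was at 83.0, 76.4 and 74.7 CPM with DMSO, 75.4, 81.0 and 72.6 with HBC530, and 122, 127 and 116 with MsOc3HBC. The HBC530 and DMSO libraries overlapped and the MsOc3HBC libraries lay above both. Its log2 fold change between the ligands was 0.67 ± 0.08 (adjusted p = 0.248, edgeR, SE, n = 3 per group). CTH, an enzyme of cysteine synthesis, and HERPUD1, a protein of endoplasmic reticulum quality control, had 0.67 ± 0.10 and 0.63 ± 0.10 with MsOc3HBC (adjusted p = 0.0235 and 0.0471, edgeR). ASNS, the asparagine synthetase that is a standard readout of ATF4, did not pass with edgeR, at 0.69 ± 0.15 with MsOc3HBC (adjusted p = 0.142, edgeR), but passed without MsOc3HBC replicate 3, at 0.47 (adjusted p = 0.024, edgeR). It was named after its values were seen.

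**Figure D5:**
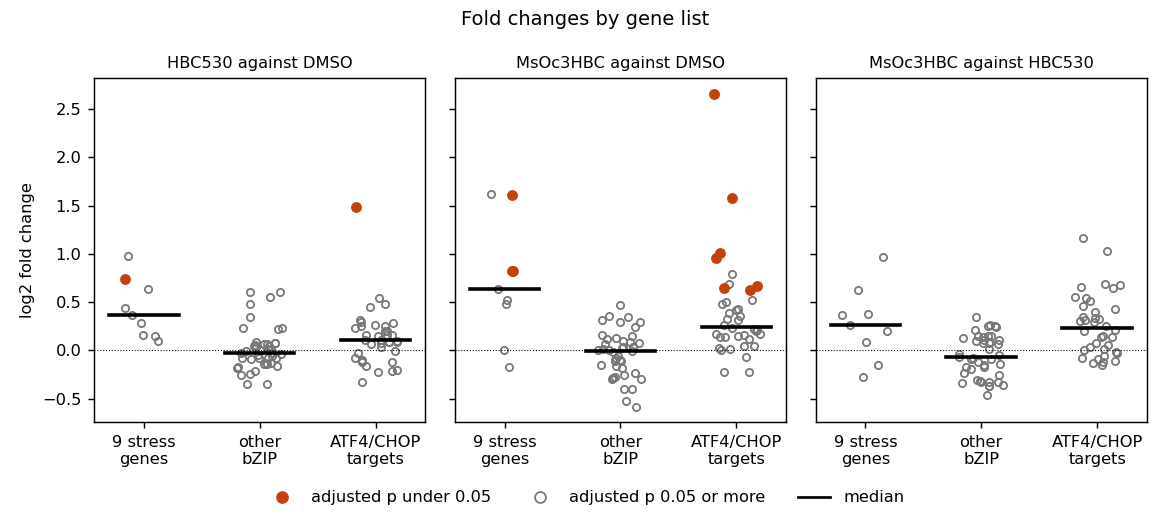
log2 fold change (vertical axis) of each tested gene in the 3 comparisons, for the 9 stress genes, the 43 other bZIP genes and the 38 targets of ATF4 and CHOP, with filled points for an adjusted p under 0.05 and lines for the medians. The other bZIP genes have medians of -0.03, -0.01 and -0.07, and the targets of 0.11, 0.24 and 0.23.

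The genes with the profile most like that of each member were found by Pearson r of log2 CPM over the 9 libraries among up to 13612 genes. These r are a description over libraries that share group, depth and the 2 libraries that stand apart. ATF4 and NUPR1 were each other's nearest profile (r = 0.990, and 0.990 over the 7 libraries without replicate 3 of both ligands), and GMDS-DT was next to ATF4 (0.989). NUPR1 was next to BBC3 (0.983), which encodes the cell death protein PUMA. JDP2 lay nearest to YARS1 (0.985), the tyrosyl-tRNA synthetase, and HERPUD1 (0.972, and 0.993 over the 7 libraries). ATF3 lay nearest to ANAPC1P4 (0.975) and MORN4 (0.943), and ATF5 to UBE2C (0.985) and MPP1 (0.967). DDIT3 lay nearest to UPF3A (0.984) and WAC-AS1 (0.979), CEBPB to NUP50-DT (0.980) and PHOSPHO2 (0.967), CEBPG to ZNF396 (0.973) and HCG11 (0.973), and TRIB3 to KCNG1 (0.964) and MFSD13A (0.946).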

How the data were processed

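Poly(A) RNA of 9 HEK293T cultures was sequenced as paired-end reads. The authors trimmed the reads with Trimmomatic 0.36, mapped them to GRCh38 with STAR 2.5.2b and deposited unique counts per gene from featureCounts (Subread 1.5.2). The annotation release is not given in the sources used here. The signal columns of the 2 deposited comparison tables equal these counts divided by 1 size factor per library in all 17382 and 17309 genes (within a relative 1e-06), and the tables' fold changes and p-values were not used. The members and lists were chosen with earlier results of these data known.

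Counts were tested with edgeR 4.0.16 in R 4.3.3 (filterByExpr, TMM factors, quasi-likelihood F test, 2 groups per fit, Benjamini-Hochberg over all genes kept, call at an adjusted p under 0.05), after a test on simulated data. Log2 fold changes are unshrunk coefficients, with SE and 95% intervals of the fit. DESeq2 1.42.0, limma-voom (limma 3.58.1), other factors and filters, thinning, single libraries left out, the replicate block and, added after seeing the data, removal of GC and length trends were alternatives. Named genes were the 9 members, up to 6 called genes of each list in a comparison (or, with no call, the 2 of smallest p), genes sharing exons with a member, and the 2 nearest profiles of each member. HERPUD1 was the seventh of its list and was named after its values were seen. Results of 2 genes, 1 named by this rule and 1 cell type marker, are not reported here. Deviations of libraries with the same replicate number correlated at 0.172, 0.393 and 0.458 between the ligands. The values were 0.0917, 0.0142 and 0.180 between HBC530 and DMSO, and -0.116, 0.0126 and 0.0459 between MsOc3HBC and DMSO. These correlations cannot show whether libraries of the same number were pairs, since libraries of different numbers were not compared. The ligand libraries that stood apart also carry the same number. Gene names came from the deposited tables, promoters from RefSeq. Counting error alone was exceeded between replicates, whose chi-square per gene was 5.21 to 58.4.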

Additional observations from a re-analysis of the deposited data

Results flagged for a closer look

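Between the ligands, 6 of the 9 genes passed in the edgeR fit with the replicate number as a block. That libraries of the same number are pairs was not established. The genes were chosen with these counts known, so the values describe these libraries and are not independent support for a difference. The log2 fold change of MsOc3HBC against HBC530 was 0.97 for JDP2 (adjusted p = 0.000106, edgeR, higher in 3 of 3 replicate numbers). It was 0.65 for NUPR1 (0.0106, 3 of 3) and 0.42 for DDIT3 (0.0383, 3 of 3). For CEBPG it was 0.36 (0.00243, 3 of 3) and for ATF4 0.26 (0.00365, 3 of 3), all adjusted p over all genes. For ATF5 it was -0.28 (adjusted p = 0.0113, edgeR, lower in 3 of 3 replicate numbers). None of the 6 passed in the main edgeR fit, which had all replicates and no block, and with the block 11.4% of all genes passed. Without replicate 3 of both ligands the same 6 passed with no block, where 9.16% of all genes passed. JDP2 also passed by DESeq2 without the block, where 0.248% of the genes with an adjusted p passed. With trends over GC content and exonic length removed in the same blocked fit, 317 of 17227 genes passed, beside 1990 of 17397 with the block alone. JDP2, NUPR1, CEBPG and ATF4 passed in it, and CEBPB passed as well (0.34, adjusted p = 0.0332, edgeR). DDIT3 (0.37, adjusted p = 0.107, edgeR) and ATF5 (-0.17, adjusted p = 0.164, edgeR) did not. The groups of 3 libraries were too small to test for libraries that stand apart within a group.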

How the results depend on the processing

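In each comparison the log2 fold changes of the members kept their direction under the alternatives run, except TRIB3 with MsOc3HBC, which had a log2 fold change of -0.0055 with DESeq2, -0.0071 without the filter on low counts, -0.021 with thinned libraries and -0.063 to 0.049 with 1 library left out. The cause of this and of the counts below was not tested.

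Of the 9 members, 1 was called with HBC530, but 2 by DESeq2, 3 without the filter, 0 at the methods threshold and 0 to 1 with 1 library left out. Over all genes it was 3 of 17684, but 23 of 14862 by DESeq2, 52 of 35505 without the filter and 5 of 17684 by limma-voom. It was 16 of 17684 with the replicate block and 6 of 15896 with thinned libraries. With trends removed it was 10 of 17512, or 14 of 17512 with the block, and 2 to 6 with 1 library left out. With MsOc3HBC 3 were called, but 7 by DESeq2, without the filter, with the replicate block, and with GC and length trends removed, with or without the block. It was 2 to 6 with 1 library left out. Counts within 1.5 times of the main count are not listed for the other alternatives. Among the 3, ATF3 and JDP2 were called in all 17 alternatives. DDIT3 was lost with RLE or upper-quartile factors, 10 counts required in every library, all 9 libraries in 1 fit, or limma-voom. Over all genes the count was 27 of 17514, but 133 of 15485 by DESeq2, 250 of 35395 without the filter and 149 of 17514 with the block. With trends removed it was 65 of 17339, or 60 of 17339 with the block, and 6 to 76 with 1 library left out. Between the ligands 0 were called, but 1 by DESeq2, without the filter or with all 9 libraries. It was 6 with the replicate block, 6 without replicate 3 of both ligands and 5 with trends removed and the replicate block. Over all genes it was 0 of 17397, but 25 of 10078 by DESeq2, 12 of 34961 without the filter and 4 of 18041 with all 9 libraries. It was 1990 of 17397 with the block and 1635 of 17840 without replicate 3 of both ligands. With trends removed it was 1 of 17227, or 317 of 17227 with the block.

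Of the other bZIP genes, 0 were called with HBC530, but 2 by DESeq2, without the filter or with the replicate block, 1 by limma-voom, with thinned libraries or with trends removed and the replicate block, and 0 to 1 with 1 library left out. With MsOc3HBC it was 0, but 1 by DESeq2, without the filter or with the replicate block, and 0 to 1 with 1 library left out. Between the ligands it was 0, but 11 with the replicate block, 9 without replicate 3 of both ligands and 1 with trends removed and the replicate block. The counts over all genes in these fits are those given for the members.

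Of the targets, 1 was called with HBC530, but 4 without the filter and 2 with trends removed, with or without the replicate block. With MsOc3HBC 7 were called, but 11 without the filter, 3 at the methods threshold (0.582% of all genes) and 2 to 10 with 1 library left out. Between the ligands 0 were called, but 6 by DESeq2 or without the filter, and 2 with all 9 libraries or at the methods threshold. It was 18 with the replicate block, 16 without replicate 3 of both ligands, 1 with trends removed and 14 with trends removed and the replicate block. The other counts over all genes in these fits are those given for the members. At the methods threshold between the ligands no count over all genes was taken. For the comparisons with DMSO, leaving out replicate 3 of both ligands is the fit without replicate 3 of that ligand. The replicate block changed no other call of these counts by more than 1.5 times. At 34 to 127 counts, NUPR1 limits what can be read of its size.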
